A study of Mus musculus with 6 samples.

Results

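The nuclear genes for the subunits of the mitochondrial respiratory chain and ATP synthase were examined in 3 clonal lines of immortalised mouse B cells. Members were chosen by name (Nduf, Sdh, Uqcr, Cyc1, Cox4 to Cox8 and Atp5 genes) and by a mean of at least 1 TPM over the 6 libraries. TPM is a transcript level corrected for gene length and for the total of the library. Of 95 names that matched, 6 carried the pseudogene mark -ps and 10 lay below the minimum, which left 79 members of 37315 genes in the table and of the 11003 that reached 1 TPM. By name, 36 members belong to complex I, 4 to complex II, 9 to complex III, 13 to complex IV and 17 to complex V. The lines are Abl.2 (female), Abl.3 (male) and Abl.4 (female), each 1 clone from the F1 cross 129S1/SvImJ x CAST/EiJ. All 3 are controls, grown until day 2 with 1% of the solvent DMSO in the medium. Each line has 2 library preparation replicates, so the p-values measure the spread between libraries and not between cultures or animals.

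Complex I takes electrons from NADH and complex II takes them from succinate. Both pass them through ubiquinone to complex III, and cytochrome c carries them on to complex IV, where oxygen is reduced. Complexes I, III and IV pump protons across the inner mitochondrial membrane, and complex V, the ATP synthase, uses the gradient to make ATP. Each complex other than II also needs subunits from mitochondrial DNA, so the nuclear subunits are made in the cytosol, imported and assembled with them. The 13 subunits encoded in mitochondrial DNA were not analysed here. Several complex IV subunits exist as paralogous pairs, with a broadly expressed form and a form known from heart and skeletal muscle.

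Because the parents of an F1 mouse come from different inbred strains, SNPs in a transcript tell its maternal copy from its paternal one. The maternal share is the maternal count over the counts of both alleles. The allele table held 60 of the 79 members, and 56 of them had at least 20 allelic counts in each library and were tested. Atp5l, Ndufs3, Uqcrh and Uqcrq fell under that minimum. The other 19 members are not in the allele table, among them the 3 on the X chromosome (Ndufa1, Ndufb11 and Cox7b), Cyc1, Cox4i1, Cox6a2 and Cox7a1. The libraries held 18362319 to 26881211 allelic counts, and the tested members had a median of 2258 to 3176 each. The depth behind the TPM is unknown. The 10 B-lineage marker genes summed to 12605 to 14003 TPM in every library, a sum carried by a few abundant genes. Singly, 7 of them were higher in Abl.2 than in Abl.3 and none lower (25.9% and 14.0% of all genes). Against Abl.4, 3 were higher in Abl.2 and 3 lower (15.0% and 18.4%). Between Abl.3 and Abl.4, 6 were lower in Abl.3 and 2 higher (26.8% and 11.3%). Pax5, a B cell transcription factor, stood at 246 and 207 TPM in Abl.2, 56.2 and 63.95 TPM in Abl.3 and 156 and 165 TPM in Abl.4. The part of these markers in the results was not tested. The T cell, erythroid and fibroblast markers summed to at most 0.69 TPM. Of 6 myeloid markers, Lyz2 stood at 70.8 to 193 TPM and Itgam reached 6.89 TPM in Abl.4, and the summed list ran from 74.98 to 193 TPM. That sum was highest in Abl.2, and its part in the results was not tested. Csf1r, Adgre1, Mpo and Elane each stayed below the 1 TPM minimum.

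The members ranged from 7.21 TPM for Atp5s to 3305 TPM for Atp5b as means over the 6 libraries, with a median of 347 TPM. The median of all 11003 genes tested was 25.2 TPM, and 39 members were among the 500 most abundant genes. Summed over all members, the transcripts made up 4.47% and 4.45% of all TPM in Abl.2, 4.68% and 4.89% in Abl.3 and 3.92% and 4.13% in Abl.4. The libraries of the 3 lines did not overlap in this sum, with Abl.3 highest and Abl.4 lowest. Levels of replicate libraries were close, with a median coefficient of variation of 6.17% over members and lines. In a bulk sample, fewer cells of a type and less RNA per cell cannot be told apart.

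In TPM, subunits of 1 complex differed widely, though the TPM of some low members is uncertain, as described below. In complex I the lowest member was Ndufc1, a small membrane-arm subunit, at 40.2 TPM and the highest was Ndufb8, another membrane-arm subunit, at 1129 TPM. In complex II the range ran from 83.3 TPM for Sdhc, a membrane anchor, to 506 TPM for Sdhb, the iron-sulphur subunit. In complex III it ran from 183 TPM for Uqcrc2, a core protein, to 1160 TPM for Uqcrq, a small subunit. Complex IV spanned 40.5 TPM for Cox7a2l, which is known for joining complexes III and IV into supercomplexes, to 2000.2 TPM for Cox4i1, a subunit that regulates the enzyme. In complex V, Atp5b, the catalytic beta subunit, was highest, and Atp5s, a coupling factor that is not part of the core enzyme, was lowest.

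**Figure D1:**
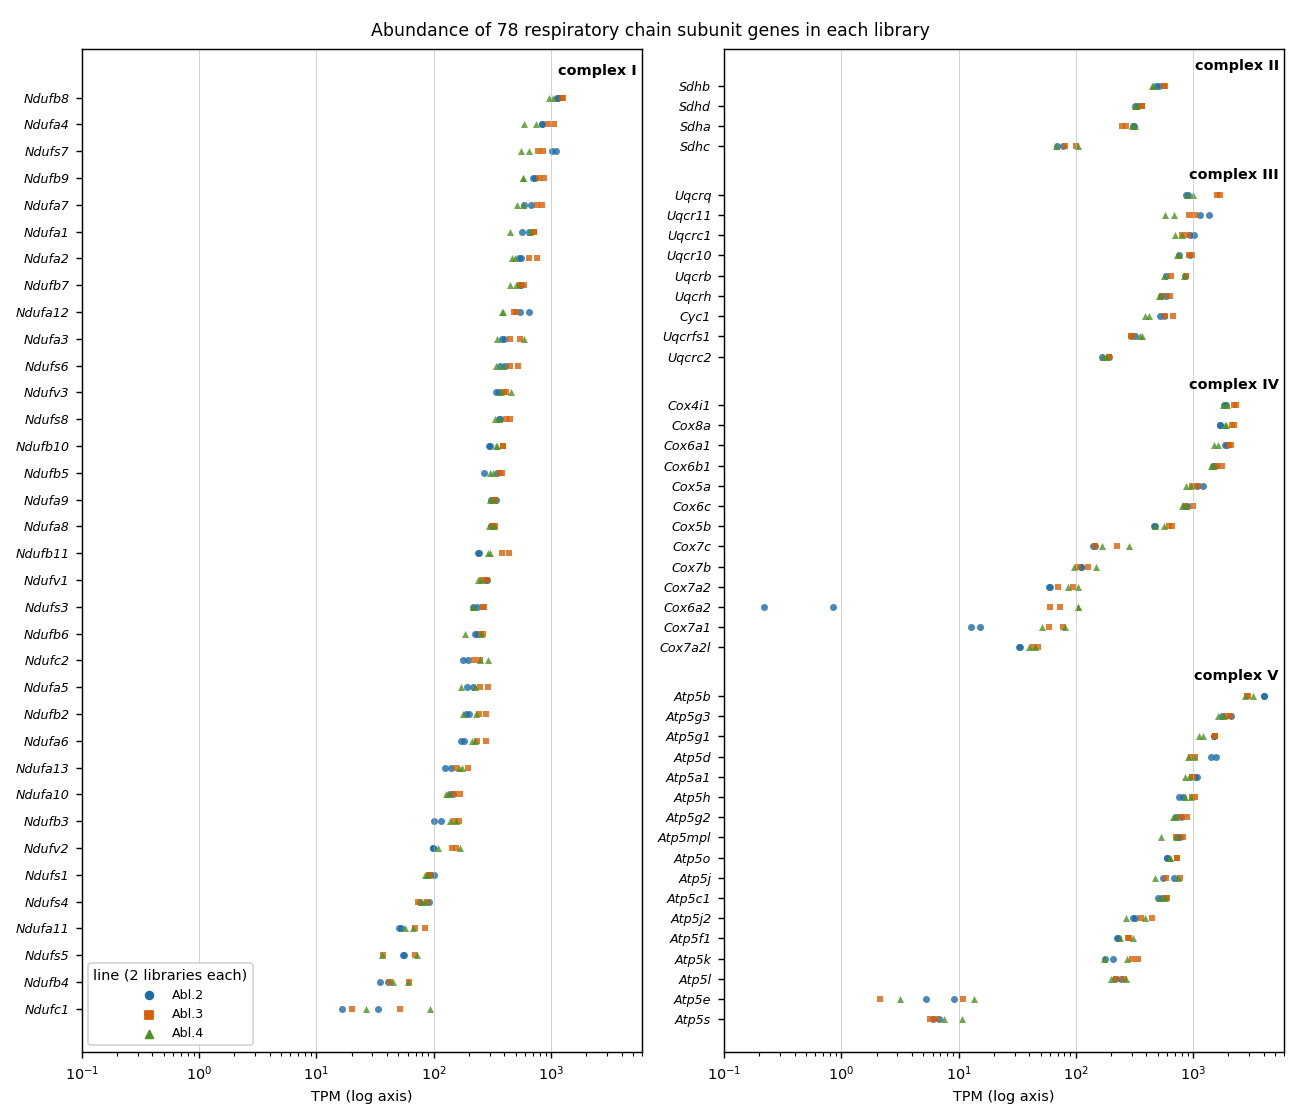
TPM of 78 of the 79 members on a log axis, 1 line per gene and 1 point per library, with blue circles for Abl.2, orange squares for Abl.3 and green triangles for Abl.4. Most genes form a tight group between 100 and 1000 TPM, while Cox6a2 and Cox7a1 are split by line, with Abl.2 far to the left.

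Some members had a low TPM beside many allelic counts. Atp5e, the epsilon subunit of the ATP synthase, stood at 9.13 and 5.31 TPM in Abl.2, 2.14 and 10.8 TPM in Abl.3 and 3.19 and 13.6 TPM in Abl.4, yet it had 1867 to 3064 allelic counts per library. Per TPM and kilobase of exon it had 192 allelic counts, against a median of 4.34 over the members, the largest value of all. Ndufs5, a complex I subunit, was next with 108, at a mean of 54.0 TPM. Its processed pseudogene BC002163 matched its coding sequence at 99.4% identity and was listed at 429 TPM, so 88.8% of the TPM of the pair lay on the copy. Ndufa12 had a similar copy, Gm15920, that held 14.8% of the TPM of the pair. In all, 20 members had at least 1 annotated copy at 95% identity or more over 80% of the coding sequence, and in the other 18 of these the copies held at most 2.70% of the TPM. How reads were shared between copies is not stated, so the levels of these members are uncertain, and 28 members share an exon with another annotated gene.

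Of the 10 names below 1 TPM, 7 were listed at 0 in every library, among them Cox7b2, Cox8b and Cox8c, paralogues known from testis or muscle. Just outside the limit lay Cox4i2, the lung form of subunit 4, at a mean of 0.828 TPM. It was at 0 in both libraries of Abl.2, at 0 and 0.35 TPM in Abl.3 and at 2.02 and 2.6 TPM in Abl.4. Ndufa4l2, a paralogue of Ndufa4 known to respond to hypoxia, had a mean of 0.197 TPM, and Cox6b2 had 0.227 TPM. Just inside the limit the lowest members were Atp5s at 7.21 TPM and Atp5e at 7.37 TPM.

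The 2 muscle-type paralogues of complex IV above the minimum, Cox6a2 and Cox7a1, had the largest differences in both pairs with Abl.2. Cox6a2 (ENSMUSG00000030785, GRCm38 chromosome 7, 128205435 to 128206387, minus strand) stood at 0.22 and 0.85 TPM in Abl.2, 60.6 and 72.9 TPM in Abl.3 and 104 and 105 TPM in Abl.4. The 3 lines did not overlap, and Abl.2 was close to 0. Its mean was 125-fold higher in Abl.3 than in Abl.2 and 196-fold higher in Abl.4. Both folds rest on low values, and against a single library of Abl.2 they were 303 and 78.5 for Abl.3 and 476 and 123 for Abl.4. Cox6a2 reached the 1 TPM minimum only through Abl.3 and Abl.4, so its difference from Abl.2 describes a gene that this minimum let in where it is high. The log2(TPM + 1) difference of Abl.2 from Abl.3 was -5.49 (SE 0.202), with an adjusted p of 1.13e-05 by limma with Benjamini-Hochberg adjustment over 11003 genes. From Abl.4 it was -6.14 (SE 0.202), with an adjusted p of 8.7e-06 by limma. Between Abl.3 and Abl.4 the difference was -0.65 (adjusted p = 0.0457 by limma), a call that was lost in each fit that left out a library of the pair. An exon of Cox6a2 overlaps Itgad, an integrin gene, which was listed at 0 to 0.59 TPM.

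Cox7a1 (ENSMUSG00000074218, chromosome 7, 30184144 to 30186078, plus strand) is the muscle form of subunit 7a. It stood at 12.9 and 15.3 TPM in Abl.2, 78.1 and 58.9 TPM in Abl.3 and 51.4 and 80.6 TPM in Abl.4. Both libraries of Abl.2 lay below all others, while Abl.3 and Abl.4 overlapped. The mean was 4.85-fold higher in Abl.3 and 4.68-fold higher in Abl.4, with log2(TPM + 1) differences of -2.19 (SE 0.233, adjusted p = 0.000768 by limma) and -2.12 (SE 0.233, adjusted p = 0.000929 by limma). The difference between Abl.3 and Abl.4 was 0.07 with an adjusted p of 0.822 by limma.

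Their broadly expressed partners are Cox6a1 and Cox7a2. Cox6a1 was at 1947 and 1870 TPM in Abl.2, 2039 and 2122 TPM in Abl.3 and 1626 and 1520 TPM in Abl.4. It was higher in Abl.2 than in Abl.4 by 0.28 and in Abl.3 than in Abl.4 by 0.40 on the log2 scale (adjusted p = 0.03 and 0.00753 by limma). Cox7a2 was at 58.7 and 60.3 TPM in Abl.2, 70.9 and 94.2 TPM in Abl.3 and 84.9 and 104 TPM in Abl.4. Abl.2 lay below the other lines in both libraries. Cox7a2 was lower in Abl.2 than in Abl.4 by a log2 difference of -0.65 (adjusted p = 0.0206 by limma), a call lost without either library of Abl.2 or without replicate 2 of Abl.4, and its difference of -0.45 from Abl.3 had an adjusted p of 0.0592 by limma, or 0.0148 with the replicate block.

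The bases upstream of 3 of these paralogues are shown because the muscle form and the broad forms differ between lines, and their start regions can be set side by side. The sequences are the 250 bases before the RefSeq start on GRCm38.p6, written 5′ to 3′ on the gene's strand, with matches to 5 searched motifs in capitals. Cox7a1 is at chr7:30183921-30184170 (plus strand), Cox7a2 at chr9:79759854-79760103 (minus strand) and Cox6a1 at chr5:115348959-115349208 (minus strand).
Cox7a1: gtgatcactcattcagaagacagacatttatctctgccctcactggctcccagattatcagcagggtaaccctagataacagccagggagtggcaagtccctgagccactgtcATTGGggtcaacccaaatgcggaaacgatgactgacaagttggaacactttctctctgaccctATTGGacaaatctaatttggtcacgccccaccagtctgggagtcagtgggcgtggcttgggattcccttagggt
Cox7a2: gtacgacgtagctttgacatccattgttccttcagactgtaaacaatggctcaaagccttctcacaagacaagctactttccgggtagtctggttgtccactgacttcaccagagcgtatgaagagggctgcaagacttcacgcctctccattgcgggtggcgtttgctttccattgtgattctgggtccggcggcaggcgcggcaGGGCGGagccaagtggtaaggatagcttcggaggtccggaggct
Cox6a1: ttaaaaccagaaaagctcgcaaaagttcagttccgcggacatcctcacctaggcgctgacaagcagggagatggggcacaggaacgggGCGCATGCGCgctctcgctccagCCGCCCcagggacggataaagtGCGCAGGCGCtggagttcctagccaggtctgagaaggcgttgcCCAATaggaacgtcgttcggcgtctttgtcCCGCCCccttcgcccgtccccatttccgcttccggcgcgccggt
The letters searched, on both strands, were GCGCA and GCGC separated by any 1 base for NRF1, AAGATGGCG for YY1, CCGGAAGT for ETS factors, CCAAT for the CCAAT box and GGGCGG for the GC box. The window of Cox7a1 held the CCAAT letters at 2 places and none of the other 4 motifs, that of Cox7a2 held 1 GC box, and that of Cox6a1 held 2 NRF1 matches, 2 GC boxes and 1 CCAAT box. In full windows of 300 bases (250 before and 50 after the start), found for 65 members, NRF1 letters were present in 16 or 24.6% of members, against 4.78% of 27025 genes. YY1 letters were in 9.23% against 1.49%, ETS letters in 7.69% against 4.00%, CCAAT in 43.1% against 37.9% and the GC box in 40.0% against 35.9%. These are letter matches and do not show binding. For Cox6a2 and Uqcrq no window was matched.

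The abundance of all members was then compared between the lines. In a limma fit of log2(TPM + 1), Benjamini-Hochberg adjusted over 11003 genes, 23 of 79 members (29.1%) had an adjusted p below 0.05 between Abl.2 and Abl.3, against 39.8% of all genes. Of these, 4 were higher in Abl.2 (25.9% of all genes were) and 19 were higher in Abl.3 (14.0% of all genes). Between Abl.2 and Abl.4, 19 members were called (33.5% of all genes), 12 higher in Abl.2 (15.0% of all genes) and 7 higher in Abl.4 (18.4%). Cox6a2, which the 1 TPM minimum let in only through Abl.3 and Abl.4, is among those lower in Abl.2 in both pairs. Between Abl.3 and Abl.4, 27 members were called (38.1% of all genes), 24 higher in Abl.3 (11.3%) and 3 higher in Abl.4 (26.8%). In this fit the share of members called was below that of all genes in each pair. With the replicate number as a block it was above that of all genes in both pairs with Abl.3. There 40, 32 and 41 members were called in the 3 pairs (50.6%, 40.5% and 51.9%), against 47.4%, 41.9% and 47.1% of all genes. In both pairs with Abl.3 the called members were mostly higher in Abl.3, with 34 of the 40 and 36 of the 41 under the block. The calls over all genes were mostly lower in Abl.3 on the TPM scale, but near even after quantile normalisation, at 2072 higher in Abl.2 and 1957 in Abl.3, and 1906 higher in Abl.3 and 1757 in Abl.4. The 3 comparisons share libraries and are not independent of each other.

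The scale of the table itself differed between lines. The median log2 difference of all genes was 0.10 for Abl.2 minus Abl.3, -0.03 for Abl.2 minus Abl.4 and -0.15 for Abl.3 minus Abl.4. The medians of the members were -0.19, 0.03 and 0.19. The 509 genes at or above the members' median level had medians of -0.11, 0.04 and 0.12. This set includes the members that reach that level, so it is not independent of them. Abundant genes were displaced to the same side, by less than the members in both pairs with Abl.3. After quantile normalisation the members' medians were -0.15, 0.02 and 0.15 and those of the abundant genes -0.05, 0.00 and 0.03. The calls were then 5 and 18, 10 and 9, and 13 and 3 in the 3 pairs, the first number for members higher in the line named first, or 29.1%, 24.1% and 20.3% of members against 36.6%, 34.7% and 33.3% of all genes. In summed allelic counts of 56 members, with edgeR and TMM scaling, the medians were -0.39, -0.15 and 0.26, and the calls 1 and 30, 3 and 10, and 18 and 0. These were 55.4%, 23.2% and 32.1% of the 56, against 42.1%, 37.2% and 37.3% of all genes, so the first pair had a larger share of members than of genes. The median between Abl.2 and Abl.4 thus turned with the summed counts, which differ from the TPM fit in values, tool, scaling and number of members, while Abl.3 was above both other lines in median under each. Leaving out a library lowered the count between Abl.2 and Abl.3 to 8 without either library of Abl.2 or replicate 2 of Abl.3, and to 14 without replicate 1 of Abl.3, where the calls over all genes also fell, to 23.1%, 22.4%, 23.8% and 25.5%. The count between Abl.2 and Abl.4 became 8 and 6 without replicate 1 and 2 of Abl.2 and 11 without replicate 2 of Abl.4 (17.9%, 18.9% and 23.6% of all genes). That between Abl.3 and Abl.4 became 8 and 9 without replicate 1 and 2 of Abl.3 (21.3% and 21.5% of all genes).

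**Figure D2:**
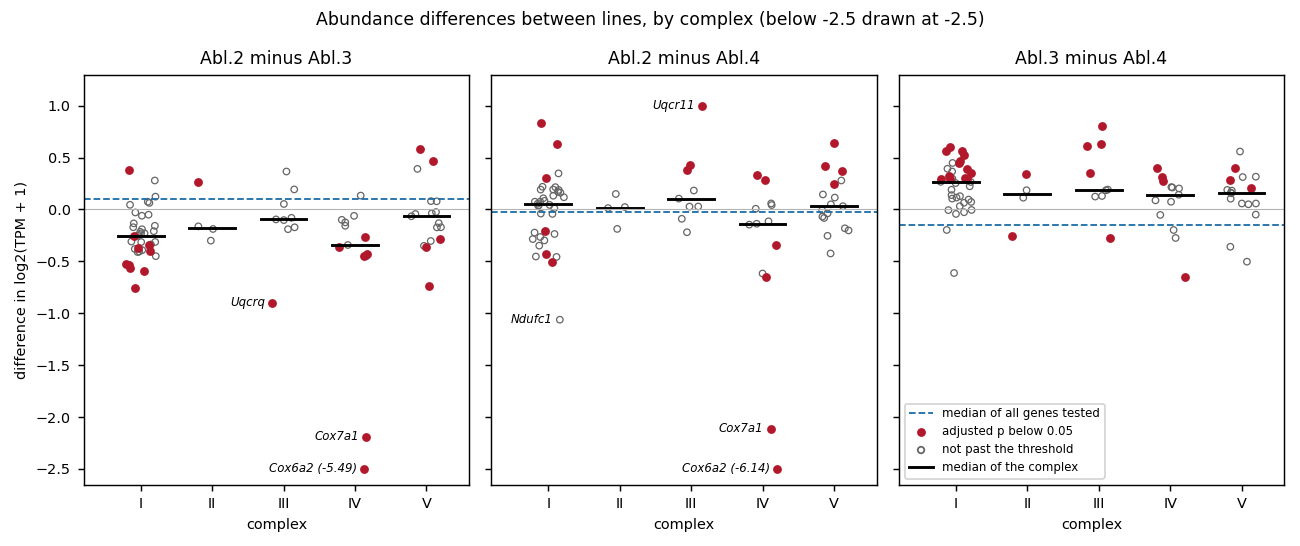
Differences in log2(TPM + 1) between lines for each member, by complex, with red points for adjusted p below 0.05 by limma, open points for the rest, black bars for the median of a complex and a dashed blue line for the median of all genes. The members of complex I lie mostly below the dashed line for Abl.2 minus Abl.3 and above it for Abl.3 minus Abl.4, and Cox6a2, drawn at the edge with its value, and Cox7a1 lie far below in both panels with Abl.2.

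In complex I, 9 of 36 members were higher in Abl.3 than in Abl.2 (14.0% of all genes were) and 1 was lower (25.9%), and 13 were higher in Abl.3 than in Abl.4 (11.3%) with none lower (26.8%). Between Abl.2 and Abl.4 the calls were 3 in each direction (15.0% and 18.4% of all genes). With the replicate block 16 were higher in Abl.3 than in Abl.2 and 2 lower (47.4% of all genes in either direction), 6 higher and 9 lower in Abl.2 than in Abl.4 (41.9%) and 18 higher and 1 lower in Abl.3 than in Abl.4 (47.1%). The median differences were -0.25, 0.05 and 0.27 for Abl.2 minus Abl.3, Abl.2 minus Abl.4 and Abl.3 minus Abl.4. Ndufb11, a membrane-arm subunit encoded on the X chromosome (20615326 to 20617619), led the first comparison with 245 and 239 TPM in Abl.2, 379 and 441 TPM in Abl.3 and 288 and 302 TPM in Abl.4. Its lines did not overlap. It differed by -0.75 on the log2 scale between Abl.2 and Abl.3 (SE 0.0903, adjusted p = 0.00123 by limma) and by 0.47 between Abl.3 and Abl.4 (SE 0.0903, adjusted p = 0.00868 by limma). An exon of it overlaps Rbm10, which stood at 104 to 122 TPM with no such order of the lines. The other X-linked members were not called in any pair, with or without the block, Ndufa1 at 447 to 720 TPM and Cox7b at 96.5 to 148 TPM.

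Ndufa4, named for complex I and since assigned to complex IV, stood at 838 and 834 TPM in Abl.2, 941 and 1055 TPM in Abl.3 and 585 and 737 TPM in Abl.4. It was highest in Abl.3, and its difference of 0.60 from Abl.4 (SE 0.122) had an adjusted p of 0.0104 by limma, or 0.0711 without replicate 2 of Abl.3. Ndufs3, Ndufs7 and Ndufs8, core subunits on the path of electrons to ubiquinone, were each higher in Abl.3 than in Abl.4, by 0.30, 0.45 and 0.30 on the log2 scale, a group picked after its values were seen. Ndufs7 lost that call without replicate 1 of Abl.3 or replicate 2 of Abl.4. The core subunits that oxidise NADH, Ndufv1, Ndufv2 and Ndufs1, differed by 0.13, 0.14 and 0.10 and did not pass, with or without the block. Whether the modules differ from each other was not tested. In the pair of Abl.2 and Abl.4, Ndufb3 and Ndufb10, accessory subunits of the membrane arm, and Ndufc2 were lower in Abl.2, by -0.43, -0.21 and -0.51. Ndufb9 went the other way, higher in Abl.2 by 0.31 (adjusted p = 0.0261 by limma), as did Ndufa12 and Ndufs7, described below with chromosome 10.

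Complex II also serves in the citric acid cycle. Of its 4 members, 2 were called in the pair of Abl.3 and Abl.4 (38.1% of all genes), in opposite directions. The pair of Abl.2 and Abl.3 had 1 call (39.8% of all genes), and that of Abl.2 and Abl.4 had none (33.5%). Sdha, the flavoprotein that oxidises succinate, stood at 308 and 313 TPM in Abl.2, 269 and 247 TPM in Abl.3 and 318 and 299 TPM in Abl.4. It was lowest in Abl.3, by 0.27 against Abl.2 and -0.26 against Abl.4 on the log2 scale (adjusted p = 0.0329 and 0.04 by limma). Sdhb ran the other way, with 574 and 564 TPM in Abl.3 and 454 and 447 TPM in Abl.4, a difference of 0.34 (adjusted p = 0.0105 by limma) that was lost without either library of Abl.3. The anchors Sdhc and Sdhd were not called in any pair. With the replicate block Sdhd was called, lower in Abl.2 than in Abl.3 by -0.16 (adjusted p = 0.0485 by limma) and higher in Abl.3 than in Abl.4 by 0.19 (adjusted p = 0.0331 by limma).

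In complex III Uqcrq, a small subunit (ENSMUSG00000044894, chromosome 11, 53427922 to 53430831), had the largest difference in both pairs with Abl.3, and Uqcr11, described below with chromosome 10, in the pair of Abl.2 and Abl.4. Uqcrq stood at 901 and 869 TPM in Abl.2, 1605 and 1697 TPM in Abl.3 and 894 and 992 TPM in Abl.4. Both libraries of Abl.3 lay far above the rest, while Abl.2 and Abl.4 overlapped. The mean was 1.87-fold higher in Abl.3 than in Abl.2, a log2 difference of -0.90 for Abl.2 minus Abl.3 (SE 0.081, adjusted p = 0.000403 by limma). It was 1.75-fold higher than in Abl.4, with a difference of 0.81 (SE 0.081, adjusted p = 0.000693 by limma). Between Abl.2 and Abl.4 the difference was -0.09 with an adjusted p of 0.432 by limma. Uqcrq had too few allelic counts for a test, a mean of 29.3 per library.

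Cyc1, cytochrome c1, stood at 566 and 524 TPM in Abl.2, 668 and 578 TPM in Abl.3 and 424 and 387 TPM in Abl.4. Abl.4 lay below both other lines, by 0.43 against Abl.2 (SE 0.0979, adjusted p = 0.0177 by limma) and 0.62 against Abl.3 (SE 0.0979, adjusted p = 0.00438 by limma). Uqcrc1, a core protein, was higher in Abl.2 than in Abl.4 by 0.38 (adjusted p = 0.0257 by limma). Uqcrfs1, the Rieske iron-sulphur protein, went against the other called members of the complex, lower in Abl.3 than in Abl.4 by -0.27 (adjusted p = 0.0272 by limma). Uqcrb, Uqcrc2 and Uqcrh were not called in any pair, with or without the block.

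In complex IV, 6 of 13 members were higher in Abl.3 than in Abl.2 (14.0% of all genes) and none lower (25.9%). Besides the muscle forms these were Cox4i1, Cox5b, Cox8a and Cox7a2l, with differences of -0.27, -0.45, -0.36 and -0.43 for Abl.2 minus Abl.3. Of the muscle forms, Cox6a2 reached the 1 TPM minimum only through Abl.3 and Abl.4. Its lower level in Abl.2, counted in both pairs, is not independent of that minimum. Cox8a, a small membrane subunit, stood at 1708 and 1695 TPM in Abl.2, 2129 and 2233 TPM in Abl.3 and 1889 and 1878 TPM in Abl.4, with no overlap between lines. Its adjusted p between Abl.2 and Abl.3 was 0.00791 by limma. Cox4i1, Cox5b and Cox6a1 were also higher in Abl.3 than in Abl.4, by 0.28, 0.31 and 0.40. Cox5a and Cox6a1 were higher in Abl.2 than in Abl.4, by 0.34 and 0.28 (15.0% of all genes were higher). In the same pair 4 members were lower (18.4% of all genes), Cox6a2, Cox7a1 and Cox7a2 as above and Cox7a2l by -0.35 (adjusted p = 0.0352 by limma).

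In complex V, Atp5b and Atp5d, both on chromosome 10 and described below, were higher in Abl.2 than in Abl.3, while Atp5h, Atp5k and Atp5o were lower. Atp5k, the e subunit that helps the enzyme form dimers, stood at 209 and 176 TPM in Abl.2, 301 and 342 TPM in Abl.3 and 174 and 272 TPM in Abl.4. Abl.3 was highest, and the difference of -0.74 from Abl.3 (SE 0.208, adjusted p = 0.0316 by limma) was lost in each fit that left out a library of the pair. The 3 genes Atp5g1, Atp5g2 and Atp5g3 code for the same mature c subunit of the rotor and stood at means of 1406, 760 and 1884 TPM. Atp5g1 was lower in Abl.4 than in Abl.2 and Abl.3, by 0.37 and 0.40 (adjusted p = 0.0109 and 0.0081 by limma). Atp5g2 was higher in Abl.3 than in Abl.4 by 0.29 (adjusted p = 0.0476 by limma). With the replicate block it was also lower in Abl.2 than in Abl.3, by -0.17 (adjusted p = 0.0433 by limma). Atp5g3 was not called in any pair, but with the replicate block its difference of 0.19 between Abl.3 and Abl.4 had an adjusted p of 0.0426 by limma.

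The 5 members on chromosome 10 are Atp5b (128083273 to 128090391), Atp5d (80138632 to 80145818), Ndufa12 (94198720 to 94221443), Ndufs7 (80249121 to 80256794) and Uqcr11 (80402997 to 80406830). Each of the 5 had a higher mean in Abl.2 than in both other lines, and their median difference was 0.38 from Abl.3 and 0.64 from Abl.4. All 511 genes tested on this chromosome had medians of 0.59 and 0.44 for the same pairs. Atp5b stood at 3999 and 4005 TPM in Abl.2, 2870 and 2931 TPM in Abl.3 and 3260 and 2763 TPM in Abl.4. Abl.2 did not overlap the others, with differences of 0.46 (SE 0.0956, adjusted p = 0.0101 by limma) and 0.41 (SE 0.0956, adjusted p = 0.0179 by limma). Atp5d, the delta subunit, stood at 1569 and 1426 TPM in Abl.2, 1039 and 966 TPM in Abl.3 and 1019 and 909 TPM in Abl.4, with differences of 0.58 and 0.64 (adjusted p = 0.00385 and 0.00298 by limma).

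Uqcr11, a small subunit of complex III, stood at 1378 and 1143 TPM in Abl.2, 1028 and 923 TPM in Abl.3 and 579 and 685 TPM in Abl.4. The lines did not overlap, and Abl.2 was 1.99-fold above Abl.4, a difference of 0.99 (SE 0.127, adjusted p = 0.00174 by limma). Ndufs7 stood at 1101 and 1017 TPM in Abl.2, 863 and 768 TPM in Abl.3 and 643 and 551 TPM in Abl.4, with no overlap. It differed by 0.83 between Abl.2 and Abl.4 (SE 0.105, adjusted p = 0.0017 by limma). Its difference of 0.38 between Abl.2 and Abl.3 had an adjusted p of 0.0303 by limma and was lost when any library of that pair was left out. Ndufa12 stood at 654 and 543 TPM in Abl.2, 482 and 500 TPM in Abl.3 and 388 and 381 TPM in Abl.4, and differed by 0.63 between Abl.2 and Abl.4 (SE 0.0992, adjusted p = 0.00404 by limma). Its copy Gm15920 was also higher in Abl.2, at 107 and 98.5 TPM, than in Abl.3 at 76.6 and 79.6 TPM or Abl.4 at 69.3 and 79.6 TPM.

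The allelic counts gave another picture. Summed over both alleles and tested with edgeR and TMM scaling, the 4 of these members that could be tested had median differences of -0.10 from Abl.3, with 2 of 4 above 0, and 0.27 from Abl.4, with 3 of 4 above 0. Over 421 genes of the chromosome tested that way the medians were 0.54 and 0.51. For Atp5b, summed in this way, the log2 difference was -0.21 from Abl.3 (adjusted p = 0.0792 by edgeR) and -0.11 from Abl.4 (adjusted p = 0.376 by edgeR). The sign was opposite to that in TPM, but neither difference passed. Without replicate 1 or 2 of Abl.2 the TPM calls of Atp5b were lost in both pairs, and without either library of Abl.3, or replicate 2 of Abl.4, in the pair concerned. Uqcr11 had a difference of 0.15 from Abl.4 in summed allelic counts (adjusted p = 0.820 by edgeR), on 30 to 98 counts per library.

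**Figure D3:**
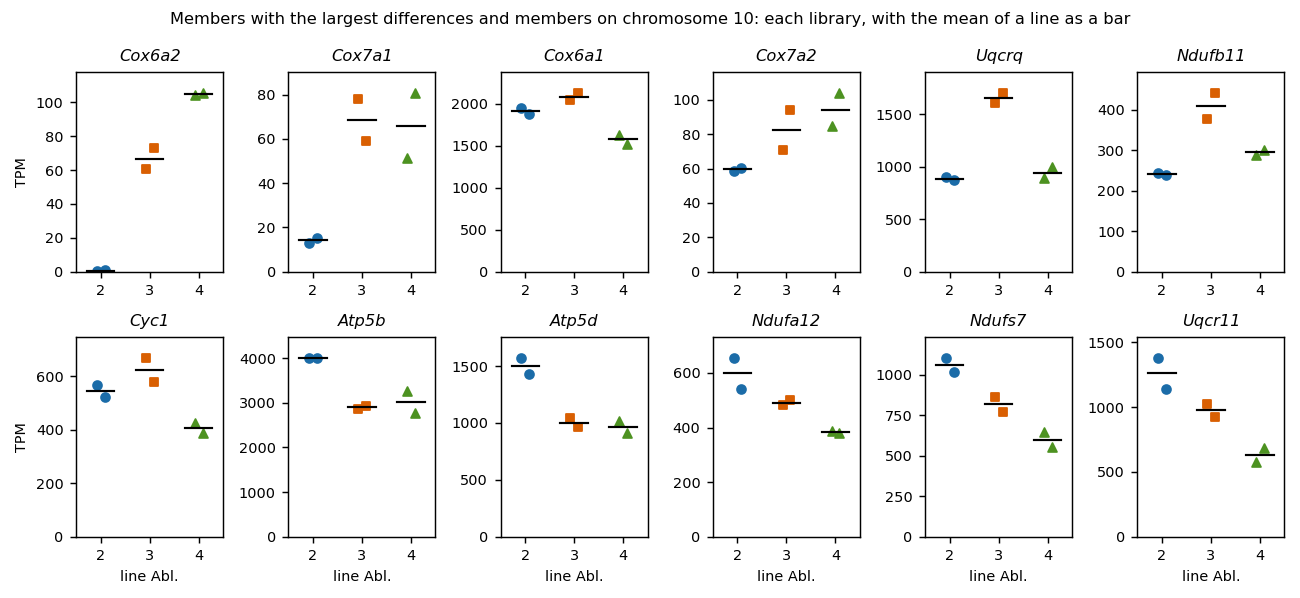
TPM of 12 members in each library (points) with the mean of a line as a bar, 1 panel per gene with an axis from 0. Cox6a2 and Cox7a1 are low in Abl.2, Uqcrq is high in Abl.3, and the chromosome 10 genes Atp5b, Atp5d, Ndufa12, Ndufs7 and Uqcr11 are highest in Abl.2.

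Other genes of the pathway were read from lists. Of 47 assembly factors tested, which help build the complexes, 1 was higher in Abl.2 than in Abl.3 and 8 were lower (25.9% and 14.0% of all genes). Against Abl.4, 7 were higher in Abl.2 and 4 lower (15.0% and 18.4% of all genes), and 11 were higher in Abl.3 than in Abl.4 and 2 lower (11.3% and 26.8%). The largest of the called differences was that of Sco2, a copper carrier for complex IV, at 0.81 for Abl.2 minus Abl.4 (adjusted p = 0.0112 by limma). After quantile normalisation the assembly factors had 21 of 47 genes higher in Abl.3 than in Abl.4 (17.3% of all genes) and 0 lower (16.0%), with a median of 0.33. Under the same scaling 15 were lower in Abl.2 than in Abl.3 (17.8% of all genes) and 1 higher (18.8%). A further list of 14 genes held electron carriers, other subunits, Coq genes for ubiquinone synthesis, Hccs and Cox17. Cox17 is also counted among the assembly factors. Of these 14 genes, 4 were lower in Abl.2 than in Abl.3 (14.0% of all genes) and none higher (25.9%). Against Abl.4, 2 were lower in Abl.2 (18.4%) and none higher (15.0%), and 1 was higher in Abl.3 (11.3%) and none lower (26.8%). Cycs, cytochrome c, led that list with 36.04 and 41.2 TPM in Abl.2, 60.2 and 87.9 TPM in Abl.3 and 72.9 and 123 TPM in Abl.4. Abl.2 lay below both, by -0.90 and -1.27 on the log2 scale (adjusted p = 0.0387 and 0.0132 by limma).

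The citric acid cycle list of 18 genes also held the pyruvate dehydrogenase genes Pdha1, Pdhb, Dlat and Pdhx. Of the 18, 2 were higher in Abl.2 than in Abl.3 and 3 lower (25.9% and 14.0% of all genes). Against Abl.4, 1 was higher in Abl.2 (15.0%) and none lower (18.4%). Of the same list, 4 were higher in Abl.3 than in Abl.4 and 1 lower (11.3% and 26.8%). Cs, citrate synthase, lies on chromosome 10 and stood at 254 and 260 TPM in Abl.2, while Abl.3 and Abl.4 ranged from 149 to 160 TPM. It differed by 0.71 and 0.75 (adjusted p = 0.000594 and 0.0005 by limma). Of 18 regulators of mitochondrial genes, 5 were higher in Abl.2 than in Abl.3, near the 25.9% of all genes, and 1 was lower (14.0%). After quantile normalisation 3 were called in each direction (18.8% and 17.8% of all genes). On the TPM scale 2 were higher in Abl.2 than in Abl.4 and 1 lower (15.0% and 18.4%), and 2 were higher in Abl.3 than in Abl.4 and 4 lower (11.3% and 26.8%). Pprc1, a coactivator of these genes, had the largest called difference between Abl.2 and Abl.3, at 0.72 (adjusted p = 0.0172 by limma). Hif1a, a factor of the hypoxia response, was lower in Abl.3 than in Abl.4 by -0.84 (adjusted p = 0.00344 by limma), the largest called difference of the list in any pair.

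The next question was whether the alleles of the members gave equal output within a line. In the quasi-likelihood test of edgeR, Benjamini-Hochberg adjusted over 8702 genes, 24 of 56 members had unequal counts in Abl.2, 13 with the maternal allele higher (24.7% of all genes) and 11 with the paternal (24.4%), against 49.1% of all genes in either direction. In Abl.3 it was 31 (45.1% of all genes), 15 maternal and 16 paternal (22.5% and 22.6% of all genes). In Abl.4 it was 21 (39.9% of all genes), 10 maternal and 11 paternal (19.2% and 20.7%). Without replicate 2 of Abl.4, fewer members and also fewer of all genes were called. Outside chromosomes 4, 10 and X the counts were 18, 29 and 19 of 49 members, against 41.5%, 43.9% and 38.2% of all genes there. Most deviations were small, and 47, 48 and 48 of the 56 members had a maternal share within 0.1 of 0.5 in Abl.2, Abl.3 and Abl.4. A share of at least 0.9 was found for 4, 1 and 2 members, and none was at or below 0.1. In Abl.4 these include Uqcr11, at 0.9 ± 0.14 (SD, n = 2) on few counts, a mean of 53.8 per library. How many of all genes reach these limits is not given here.

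**Figure D4:**
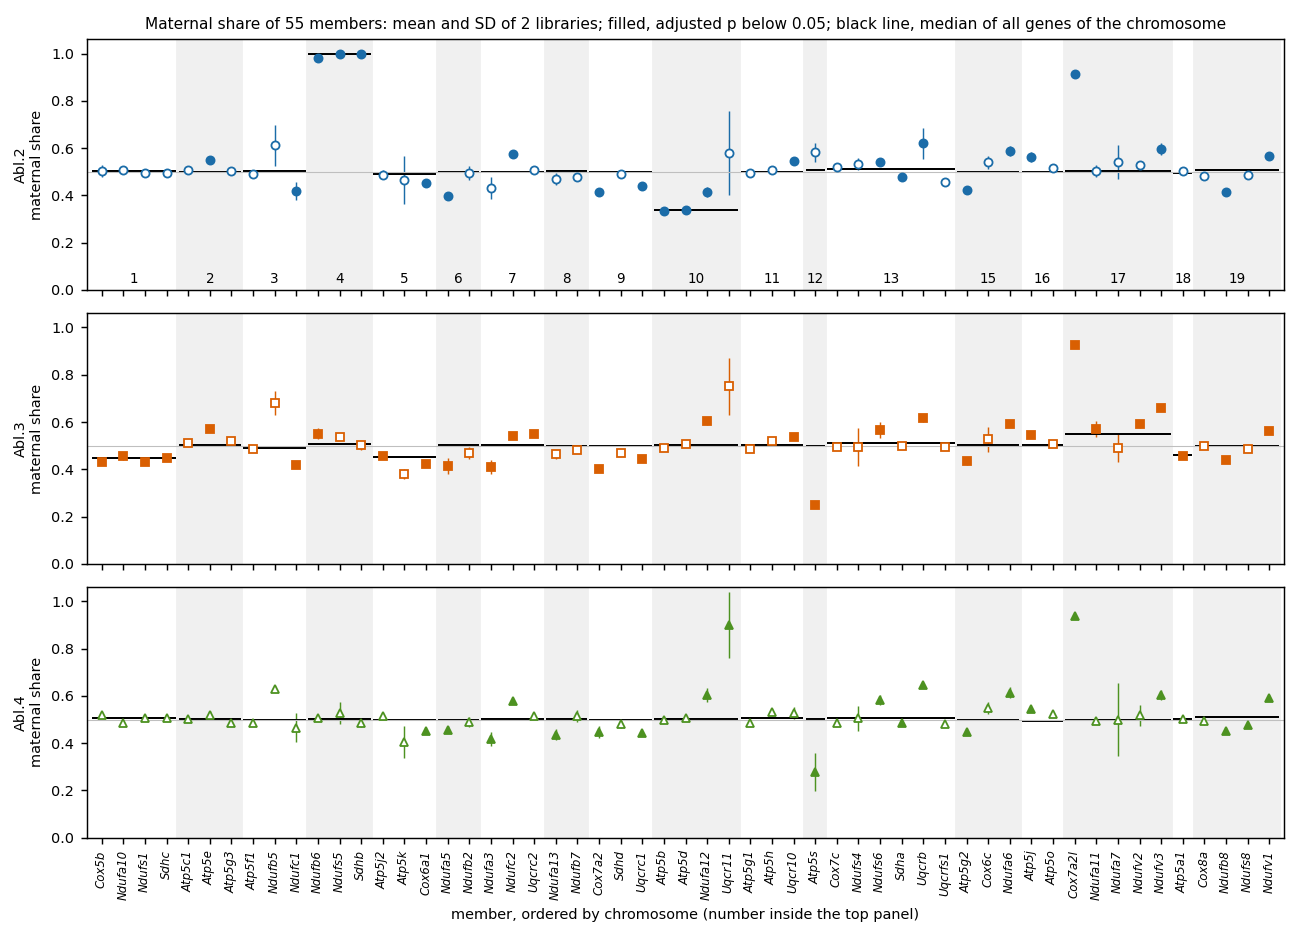
Maternal share (0 to 1, mean and SD of 2 libraries) of 55 of the 56 tested members in Abl.2, Abl.3 and Abl.4, ordered by chromosome, filled where the share differed from 0.5 at an adjusted p below 0.05 by edgeR. Black lines give the median share of all tested genes of the chromosome, and members lie near it on chromosome 4 of Abl.2 and chromosome 1 of Abl.3, as do Atp5b and Atp5d on chromosome 10 of Abl.2, while Cox7a2l stays above 0.9 in all 3 lines.

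Members on chromosomes 4 and 10 were shifted in Abl.2 together with the median of their chromosome. On chromosome 4, where the median share of all 554 genes tested was 0.998 in Abl.2, Sdhb had 5823 maternal and 11 paternal counts in replicate 1 of Abl.2 and 7354 and 11 in replicate 2. In Abl.3 its libraries had 3256 and 3403, then 3224 and 3026, and in Abl.4 2489 and 2499, then 2310 and 2552. The shares of the 3 lines were 0.998 ± 0.00028, 0.502 ± 0.019 and 0.487 ± 0.017 (SD, n = 2). The log2 allele ratio differed by 9.19 between Abl.2 and Abl.3 (SE 0.142, adjusted p = 3.28e-12 by edgeR) and by 9.28 between Abl.2 and Abl.4 (SE 0.142, adjusted p = 4.7e-12 by edgeR). These SEs were computed back from the test statistic. With 11 paternal counts in each library of Abl.2, they are not the precision of the ratio. Ndufs5 had shares of 0.998 ± 0.0019, 0.535 ± 0.012 and 0.527 ± 0.048 and Ndufb6, a membrane-arm subunit of complex I, of 0.982 ± 0.0037, 0.551 ± 0.022 and 0.506 ± 0.0095 in the same order (SD, n = 2). The paternal counts of Ndufb6 in Abl.2, 41 and 36, were few but above those of Sdhb, and an exon of Ndufb6 overlaps Smim27.

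The output of each allele was then read for Sdhb. Sdhb had 265 ± 12.1 maternal counts per 1000000 allelic counts in Abl.2 (SD, n = 2), against 169.7 ± 8.30 for Abl.3 and 119.9 ± 6.32 for Abl.4, with no overlap between lines and Abl.2 highest. Both alleles together gave 265.5 ± 12, 338 ± 3.75 and 246 ± 4.45 counts per 1000000 in the 3 lines (SD, n = 2). In TPM none of the 4 chromosome 4 members, Uqcrh included, was called between Abl.2 and either other line, with median differences of -0.13 and 0.11, against calls of 39.8% and 33.5% of all genes. With the replicate block Sdhb was called, lower in Abl.2 than in Abl.3 by -0.19 (adjusted p = 0.0282 by limma). In summed allelic counts the 3 members tested had medians of -0.35 and 0.09, and 1 was called lower in Abl.2 than in Abl.3. In that fit 42.1% of all genes were called in either direction.

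On chromosome 10 the median share of 431 genes in Abl.2 was 0.337. Atp5b had 6460 maternal and 12630 paternal counts in replicate 1 of Abl.2 and 6738 and 13832 in replicate 2. The shares of the 3 lines were 0.333 ± 0.0077, 0.492 ± 0.00047 and 0.496 ± 0.001 (SD, n = 2). On the log2 scale the allele ratio differed by -0.95 from Abl.3 (SE 0.0469, adjusted p = 3.18e-08 by edgeR) and by -0.98 from Abl.4 (SE 0.0469, adjusted p = 3.31e-08 by edgeR). Atp5d had shares of 0.339 ± 0.0048, 0.508 ± 0.0022 and 0.505 ± 0.0052 (SD, n = 2). Ndufa12 was shifted by a like amount from another base, with 0.413 ± 0.021, 0.603 ± 0.014 and 0.605 ± 0.03 (SD, n = 2) in the same order of lines. The log2 ratio differed from Abl.3 by -1.01 for Atp5d and -1.11 for Ndufa12 (adjusted p = 1.01e-07 and 3.33e-06 by edgeR).

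The output of each allele moved differently in these genes. Atp5d had 378 ± 22.9 paternal counts per 1000000 in Abl.2 against 225 ± 1.98 in Abl.3 and 193.9 ± 11 in Abl.4, while its maternal output was 194 ± 16, 233 ± 0.0161 and 198 ± 7.13 (SD, n = 2). Atp5b had 268 ± 24 maternal counts per 1000000 in Abl.2 against 455 ± 21.3 in Abl.3 and 429.6 ± 9.49 in Abl.4, and 535.5 ± 29.6, 471 ± 22.9 and 436 ± 7.83 paternal ones (SD, n = 2). Its paternal output was thus higher and its maternal output lower in Abl.2. Uqcr11 also had its lowest mean share in Abl.2 but from a higher base, with 0.704 and 0.455 in the libraries of Abl.2, 0.837 and 0.667 in Abl.3 and 1 and 0.8 in Abl.4. It rests on 30 to 98 counts, where the 95% Wilson interval of a single library, which covers counting error only, ran from 0.330 to 0.585 in replicate 2 of Abl.2. Its allelic difference did not pass in any pair.

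**Figure D5:**
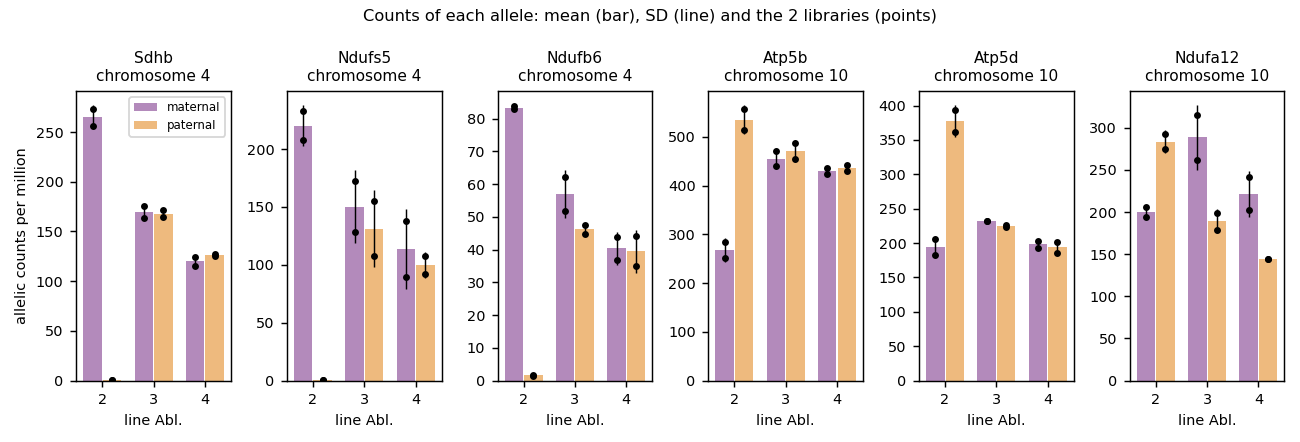
Maternal (purple) and paternal (orange) counts per 1000000 allelic counts of 3 members on chromosome 4 and 3 on chromosome 10, with bars for means, lines for SD and points for the 2 libraries. In Abl.2 the paternal bars of Sdhb, Ndufs5 and Ndufb6 are near 0, and those of Atp5b, Atp5d and Ndufa12 stand above the maternal ones.

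Allelic shares were then compared between lines. By edgeR's test of the difference, 15 of 56 members differed between Abl.2 and Abl.3 (28.4% of all genes), 9 between Abl.2 and Abl.4 (22.3% of all genes) and 7 between Abl.3 and Abl.4 (16.5% of all genes). Outside chromosomes 4, 10 and X the counts were 9, 3 and 7 of 49 members, against 18.1%, 13.8% and 14.6% of all genes there. The maternal share was higher in the line named first in 10, 4 and 1 members (15.4%, 12.7% and 8.53% of all genes) and in the line named second in 5, 5 and 6 (13.0%, 9.61% and 7.93%). The first count fell to 8 without replicate 1 of Abl.2 (23.9% of all genes), and the third to 3 without either library of Abl.3 (11.9% of all genes each) and to 4 without replicate 2 of Abl.4 (14.8%).

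In Abl.3, Cox5b, Ndufa10, Ndufs1 and Sdhc on chromosome 1 were shifted to the paternal side, where the chromosome's median share was 0.447 ± 0.000532 (SD, n = 2). Their shares ranged from 0.429 to 0.454 in Abl.3, from 0.493 to 0.509 in Abl.2 and from 0.485 to 0.521 in Abl.4. Each differed between Abl.2 and Abl.3, and all but Ndufa10 differed between Abl.3 and Abl.4. The members' calls between Abl.2 and Abl.3 were fewer without any library of that pair, most of all without replicate 1 of Abl.2. Which of these chromosome 1 calls were then lost is not given here. Sdhc, a membrane anchor of complex II, differed by 0.27 (SE 0.0812, adjusted p = 0.032 by edgeR) and -0.34 (SE 0.0821, adjusted p = 0.0159 by edgeR) on the log2 scale of the allele ratio. The calls between Abl.3 and Abl.4 of Cox5b and Ndufs1 were lost without replicate 1 of Abl.3, and that of Sdhc without replicate 2 of Abl.3 or of Abl.4.

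Chromosomes 5, 17 and 18 also had a displaced median in Abl.3. On chromosome 18, Atp5a1, the alpha subunit of the ATP synthase, had shares of 0.505 ± 0.0044, 0.457 ± 0.011 and 0.503 ± 0.0055 in Abl.2, Abl.3 and Abl.4 (SD, n = 2), and differed in both pairs with Abl.3 (adjusted p = 0.00658 and 0.0159 by edgeR). On chromosome 17, where the median in Abl.3 was 0.548, Ndufv3 had 0.598 ± 0.025, 0.658 ± 0.012 and 0.603 ± 0.02 (SD, n = 2) and differed between Abl.2 and Abl.3 (adjusted p = 0.0212 by edgeR). The other members there did not pass in a pair with Abl.3. Ndufa11 and Ndufv2 had their highest share in Abl.3, at 0.570 and 0.591, and with the replicate block Ndufv2 differed between Abl.3 and Abl.4 (adjusted p = 0.0473 by edgeR), while Ndufa7 had its lowest there, at 0.489, and Cox7a2l lay between the other lines. On chromosome 5, with a median of 0.450, Atp5j2 had 0.455 in Abl.3 and 0.513 in Abl.4 (adjusted p = 0.0395 by edgeR). That call was lost with the replicate block, and when any 1 of the 6 libraries was left out. Atp5k and Cox6a1, on the same chromosome, also had their lowest share in Abl.3, at 0.381 and 0.422, and did not pass. Uqcrc2 on chromosome 7 was the one member called in Abl.3 off these chromosomes in both pairs, with 0.509, 0.551 and 0.513 (adjusted p = 0.00805 and 0.0275 by edgeR).

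Some members were unequal in every line. In all 3 lines 15 of 56 members, or 26.8%, were called, near the 25.8% of all genes, 8 with the maternal allele higher throughout and 6 with the paternal, and Ndufa12 changed sides in Abl.2. With the replicate block it was again 15 (25.1% of all genes), but without Ndufs6, whose adjusted p in Abl.2 became 0.0536 by edgeR, and with Ndufa3. No line called 17 members, or 30.4%, against 33.9% of all genes, and 18 with the block, against 35.3%. Cox7a2l (chromosome 17, 83501918 to 83517330) stood out, with maternal and paternal counts of 1695 and 166, then 2139 and 203 in Abl.2. They were 2503 and 182, then 2448 and 224 in Abl.3, and 1889 and 113, then 1959 and 138 in Abl.4. Its share was 0.912 ± 0.0018, 0.924 ± 0.011 and 0.939 ± 0.0066 (SD, n = 2), and each line differed from 0.5 (adjusted p = 6.47e-10, 1.28e-09 and 1.11e-09 by edgeR). Between Abl.2 and Abl.4 the log2 ratio differed by -0.56 (adjusted p = 0.0289 by edgeR).

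The other members called in all lines were nearer to 0.5. Uqcrb, a small subunit of complex III, had 0.62 ± 0.065, 0.618 ± 0.016 and 0.648 ± 0.002 in Abl.2, Abl.3 and Abl.4 (SD, n = 2), and its call in Abl.2 was lost without replicate 2. Ndufa6, Ndufc2, Ndufs6, Ndufv1, Ndufv3 and Atp5j were also maternal, at shares of 0.542 to 0.658. Uqcrc1 was the most deeply counted of the paternal ones, at 26399 to 46478 counts per library, with 0.438 ± 0.002, 0.444 ± 0.0045 and 0.445 ± 0.0076 (SD, n = 2). The rest of that side were Atp5g2, Cox6a1, Cox7a2, Ndufa5 and Ndufb8, at 0.399 to 0.457. Whether SNPs in these genes favour the mapping of one allele was not tested.

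Atp5s (chromosome 12, 69724950 to 69744660) was the member with the largest difference off chromosomes 4 and 10, on few counts. It had 61 maternal and 49 paternal counts, then 111 and 71 in Abl.2, 31 and 98, then 34 and 99 in Abl.3, and 56 and 111, then 40 and 140 in Abl.4. The shares were 0.582 ± 0.039, 0.248 ± 0.011 and 0.279 ± 0.08 (SD, n = 2), so Abl.2 alone lay on the maternal side and overlapped neither line. The log2 ratio differed by 2.09 from Abl.3 (SE 0.43, adjusted p = 0.00344 by edgeR) and by 1.88 from Abl.4 (SE 0.419, adjusted p = 0.00694 by edgeR). The second call was lost without replicate 2 of Abl.2 or of Abl.4, and the imbalance within Abl.4 without its replicate 2.

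In the authors' deposited table of allelic imbalance, the interval excluded 0.5 for 19 of 56 members with an estimate in Abl.2, of which 10 lay above and 9 below (19.3% and 18.9% of all genes with an estimate). It did so on the maternal side for 8 and on the paternal side for 11 of 55 members in Abl.3 (13.8% and 13.4% of all genes), and for 8 and 2 of 55 in Abl.4 (10.4% and 12.4%). The authors' deposited table gives Atp5s as 0.59 with limits of 0.35 and 0.81 in Abl.2 and as 0.25 with limits of 0.05 and 0.52 in Abl.3, intervals that overlap. It gives Cox7a2l as 0.91, 0.92 and 0.94.

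Replicate libraries also differed in the levels of some members. Ndufc1 was higher in replicate 2 in every line, at 16.4 and 33.2 TPM in Abl.2, 20.2 and 51.5 TPM in Abl.3 and 26.5 and 93.5 TPM in Abl.4. It was the only member higher by more than 0.5 on the log2 scale in replicate 2 of all 3 lines. In Abl.4, 14 members were higher by 0.5 or more in replicate 2 and none was lower by as much, against 5 and 0 in Abl.3 and 3 and 1 in Abl.2. How many of all genes shifted by as much is not given here, so these counts do not set the members apart. Within each replicate number Ndufc1 was lowest in Abl.2 and highest in Abl.4. Its differences of -1.06 for Abl.2 minus Abl.4 and -0.61 for Abl.3 minus Abl.4 had adjusted p-values of 0.269 and 0.505 by limma, and of 0.00839 and 0.044 with the replicate block.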

How the data were processed

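RNA from live cells of each line was made into SMART-seq v4 libraries from 10 ng, per the labels' protocols. The submitters' processing notes name STAR 2.5.4a, SAMtools, GATK and DESeq2 and the builds GRCm38, GRCh37 and mm10, with no role or order. Per the file headers, the deposited abundance values are TPM that the authors measured with DESeq2. The deposited allelic counts are reads at SNP positions in a gene for each parental allele, per the file headers. The deposited allelic imbalance is the fraction of maternal counts averaged over replicates with an interval, per the file headers.

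TPM were tested as log2(TPM + 1) with limma 3.58.1 (trend) in R 4.3.3, on genes whose mean reached 1 TPM, over all 6 libraries. Allelic counts were tested with edgeR 4.0.16 by quasi-likelihood, with a term for each library and an allele term within each line, on genes with at least 20 allelic counts in every library and off the Y chromosome. Each SE given with an edgeR result is the absolute log2 difference over the square root of the F statistic. It was not estimated by the fit itself. All p-values were two-sided and Benjamini-Hochberg adjusted over all genes tested, at 0.05. Both fits were tested on simulated data. Near copies were found with BLAST+ 2.17.0. Exon overlaps are from GENCODE M21, which gave the same position for 75 of the 79 members.

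The members, lists and named genes were chosen with earlier results of these data known. Named members were the highest and lowest of each complex, those with the largest called differences in level or share whose libraries did not overlap, those farthest from an equal share, all on chromosomes 4, 10 and X, and the paralogous subunits. Other members named here were chosen after their values were seen. The values of 1 member are not reported here. Alternatives were other pseudocounts, filters, scalings, tools and coverage minimums, a replicate block, and leaving out each library.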

Additional observations from a re-analysis of the deposited data

Results flagged for a closer look

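The allele test of the difference between lines passed for the 29 pairs of a member and a comparison given here, by edgeR with Benjamini-Hochberg adjustment. The values below are differences in mean maternal share, the line named first minus the line named second. The comparisons share libraries.

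Between Abl.2 and Abl.3 the chromosome 4 members differed by 0.496 (Sdhb), 0.463 (Ndufs5) and 0.430 (Ndufb6). The chromosome 10 members differed by -0.159 (Atp5b), -0.168 (Atp5d) and -0.190 (Ndufa12). On chromosome 1 the differences were 0.0735 (Cox5b), 0.0546 (Ndufa10), 0.0635 (Ndufs1) and 0.0458 (Sdhc). The others were 0.334 (Atp5s), 0.0481 (Atp5a1), -0.0607 (Ndufv3) and -0.0421 (Uqcrc2).

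Between Abl.2 and Abl.4 the chromosome 4 members differed by 0.511 (Sdhb), 0.471 (Ndufs5) and 0.476 (Ndufb6), and the chromosome 10 members by -0.163 (Atp5b), -0.166 (Atp5d) and -0.191 (Ndufa12). The others were 0.303 (Atp5s), -0.0268 (Cox7a2l) and -0.0401 (Ndufb8).

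Between Abl.3 and Abl.4 the differences were -0.0910 (Cox5b), -0.0773 (Ndufs1) and -0.0595 (Sdhc) on chromosome 1, and -0.0466 (Atp5a1), -0.0582 (Atp5j2) and 0.0376 (Uqcrc2) elsewhere. With the replicate block the call of Atp5j2 was lost.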

How the results depend on the processing

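The counts of called members below are given for Abl.2 against Abl.3, Abl.2 against Abl.4 and Abl.3 against Abl.4, where the reported counts were 23, 19 and 27 in abundance and 15, 9 and 7 in allelic difference. Without a filter on low values, 12 members were called between Abl.2 and Abl.4 (20.8% of all genes), and after quantile normalisation 16 between Abl.3 and Abl.4 (33.3%). A log2 difference of at least 0.5 left 10, 8 and 8 (27.6%, 23.6% and 25.9% of all genes). Leaving out 1 library gave 8 to 28, 6 to 22 and 8 to 21 in abundance, 8 to 17, 7 to 9 and 3 to 6 in allelic difference, and 19 to 25, 21 to 32 and 13 to 19 unequal members within Abl.2, Abl.3 and Abl.4. Where a line was left with 1 library, that library was assumed to vary like the others. The share of all genes called also fell in each fit that left out a library of a line compared or tested. A share difference of at least 0.2 left 4, 4 and 0 (15.1%, 11.96% and 6.92% of all genes), and a share at least 0.1 from 0.5 left 8, 5 and 7 within the lines (32.8%, 25.1% and 23.1%). In summed allelic counts the difference of Atp5b had the opposite sign, at -0.21 against Abl.3 and -0.11 against Abl.4, and did not pass in either pair. The cause was not tested.

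With the replicate number as a block, 40, 32 and 41 members were called in abundance (50.6%, 40.5% and 51.9%, against 47.4%, 41.9% and 47.1% of all genes), 15, 9 and 7 in allelic difference (27.6%, 21.8% and 15.4% of all genes), and 24, 32 and 19 within the lines (48.4%, 43.97% and 38.7%). In abundance the block ended no call of a member and added 17, 13 and 14, and of the allelic calls named in the text it ended those of Atp5j2 (adjusted p = 0.0575 by edgeR) and of Ndufs6 within Abl.2 (0.0536). It also ended the calls of Ndufs8 and Sdha within Abl.4 (0.0504 and 0.0569). The labels do not say that a number is shared between lines. Deviations of same-numbered libraries correlated at 0.104, 0.187 and 0.161 over all genes and at 0.0695, 0.112 and 0.780 over the members.

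Of 51 named results, 27 missed the threshold in at least 1 setting, over 79 combinations of result and setting. The number of libraries limits the precision of TPM, whose depth is unknown.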
